A study of Mus musculus and Ochotona curzoniae and Rattus norvegicus with 18 samples.

Results

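The HOX genes, taken as every symbol made of HOX, a cluster letter from A to D and a number, were described in cultured fibroblasts of the Tibetan pika and the mouse. Of 39 HOX genes, 39 had a row in the mouse table and 38 in the pika table. The exception was HOXD8, which had no row in the pika table. These 38 genes were among 14418 that could be joined between the species by symbol. Rows numbered 19398 in the pika table and 49585 in that of mouse.

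The series was set up to map binding of Epas1 and to measure core clock transcripts in several species. RNA was sequenced from fibroblasts labelled as Tibetan pika (Ochotona curzoniae) and as C57BL/6J mouse, with 3 libraries of each species. Cells of both species were kept in DMEM with fetal bovine serum and antibiotics and were lysed in TRIZOL near confluency, and no allele, transgene or other treatment is given for them in the labels. The tissue label reads epidermis, and the body site, age and number of animals are not given in the labels used here. Libraries of rat and rabbit fibroblasts and the ChIP-seq samples were not used here.

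HOX genes encode homeodomain transcription factors that set position along the body axis of animals. In mammals they lie in the clusters HOXA, HOXB, HOXC and HOXD, and genes at the same place in different clusters form a paralog group. Low-numbered groups, at the 3′ end, are used early and towards the head, and high-numbered groups, at the 5′ end, late and towards the tail, the limb tips and the genitalia. Human adult skin fibroblasts in culture are known to keep a pattern of HOX transcripts that depends on the body site they were taken from.

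Pika fibroblasts held few HOX transcripts apart from HOXA2, whereas mouse fibroblasts held many, led by genes at the 5′ ends of HOXB and HOXC. The deposited FPKM values (fragments scaled to gene model length and library size) of all HOX rows summed to 8.31, 8.28 and 9.42 in the 3 pika libraries, against 153, 162 and 165 in the 3 mouse libraries. Behind these sums lay 86, 80 and 103 reads in pika and 1859, 1265 and 1658 reads in mouse. Read numbers were recovered from the deposited FPKM as the smallest that give whole reads and a whole model length, so a row may rest on more reads than are given here, above all where it was above 0 in a single library. Every mouse sum was thus far above every pika sum, although the mouse libraries were the shallower ones. For comparison the joined genes of every library were set to add up to 1000000, here called the shared-gene scale. On that scale the 38 joined HOX genes summed to 18.73 ± 1.413 in pika and 848.5 ± 24.24 in mouse (SD, n = 3 each), a level 45.3-fold lower in pika (log2 ratio -5.50). The two-sided exact permutation test gave p = 0.1, the smallest that 3 against 3 libraries can give. In bulk samples like these, fewer cells that hold a transcript and less transcript per cell cannot be told apart.

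The library totals behind these values lay between 7703576 and 8481030 reads in pika and between 3663102 and 5758950 in mouse. Fibroblast markers matched the label in both species: 14 of 14 joined markers were at 1 FPKM or more in pika and 13 of 14 in mouse, with summed levels of 7536 to 7774 FPKM in pika and 4145 to 4154 in mouse. Of 10 joined keratinocyte markers, the cells that make up the epidermis, 0 reached 1 FPKM in pika, 8 were listed at 0 in all 3 pika libraries, and the sum was 0.0636 to 0.336 FPKM. In mouse 1 of these 10 markers, the desmosome gene DSP, reached 1 FPKM, and the sum was 10.1 to 10.75 FPKM. KRT10 (mean 0.951 FPKM), IVL (0.402) and LOR (0.311) were above 0 in all 3 mouse libraries and at 0 in all 3 pika libraries. KRT17 (0.110) was above 0 in pika alone. Melanocyte markers summed to 31.6 to 36.3 FPKM in pika and 10.2 to 11.1 in mouse, with 2 of 6 at 1 FPKM or more in pika and 1 of 6 in mouse. In pika MITF (mean 18.6 FPKM) and PMEL (14.6) made up most of that sum. In mouse MITF (9.51) did, with PMEL at 0.936. DCT was at 0.216 in pika and 0.119 in mouse. TYR (0.289) and SOX10 (0.0455) were above 0 in pika alone, and TYRP1 (0.0322) in mouse alone. Endothelial markers summed to 0.328 to 0.742 FPKM in pika and 6.31 to 7.36 in mouse. TEK (mean 5.92 FPKM) made up most of the mouse sum, with PECAM1 at 0.177 (0.142 in pika) and EMCN at 0.232. CDH5 (0.229), KDR (0.221) and TIE1 (0.172) were above 0 in all 3 mouse libraries and at 0 in all 3 pika libraries. Leukocyte markers summed to 1.57 to 2.19 FPKM in pika and 4.34 to 7.16 in mouse. In mouse CSF1R (mean 2.31 FPKM) and CD68 (2.98) were the 2 of 6 that reached 1 FPKM. ITGAM (0.368) and PTPRC (0.0239) were above 0 in all 3 mouse libraries and at 0 in all 3 pika libraries. Sums led by 1 or 2 genes, with low levels of the others, do not show whether such cells were present. Any part of other cells in the HOX differences was not tested.

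Rows listed at 0 were common in pika. They numbered 31, 29 and 28 of 38 in the 3 pika libraries, against 10, 7 and 5 of 39 in the 3 mouse libraries. In pika 22 of the 38 rows were at 0 in all 3 libraries, whereas 13.2% of all joined genes were. In mouse 3 of 39 were at 0 in all 3 libraries, namely HOXB1, HOXD1 and HOXD10, beside 5.48% of the joined genes, and these 3 were at 0 in pika too. At least 1 FPKM on average was reached by 1 of 38 HOX genes in pika and by 20 of 39 in mouse, while 66% of the joined genes reached it in pika and 64.3% in mouse. A gene at 1 FPKM or more in mouse was listed at 0 in all 3 pika libraries for 1.6% of the joined genes that reached that level in mouse.

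Genes were tested where their mean deposited FPKM was 1 or more in either species, which left 21 HOX genes. The test was limma-trend on log2(shared-gene-scale FPKM + 1), fitted on all 10348 genes that passed this filter. A gene was called where the Benjamini-Hochberg adjusted p was under 0.05 and the log2 fold change, of either sign, was at least 1 in size. By this rule 20 of the 21 HOX genes were called lower in pika, where 23.5% of all tested genes were, and 1, HOXA2, was called higher, where 28.7% of all tested genes were. Of all tested genes 52.2% were called in either direction. The filter lets a gene in through the species where it is high, so the 21 are not a picture of all members: 17 joined genes were below it in both species and HOXD8 could not be joined. Over all 38 joined members on the shared-gene scale, the libraries of 26 lay wholly lower in pika (35.5% of all joined genes), those of 1 wholly higher (37.4% of all joined genes) and those of 11 overlapped. No label states that the libraries are separate animals or cultures, so each p-value reflects variation among these libraries, and that variation may be technical. Species, genome, gene annotation, body site and age of the animals cannot be told apart in this design, since site and age are not given in the labels.

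**Figure D1:**
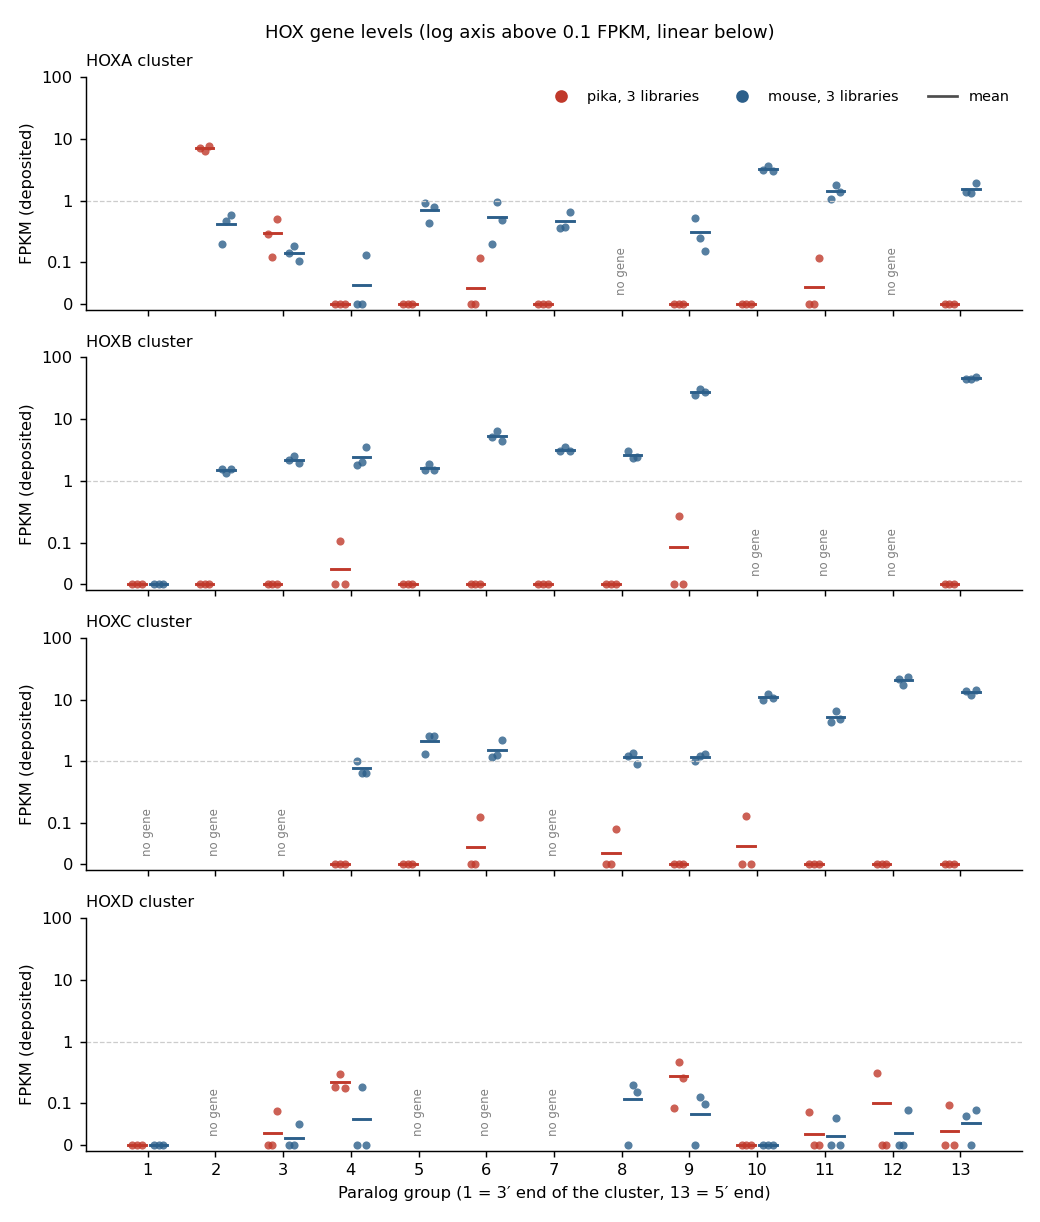
Deposited FPKM (y axis, logarithmic above 0.1 and linear below) of each HOX gene by cluster and paralog group (x axis), with 1 point per library and a line at the mean of the 3 pika libraries (red, left) and the 3 mouse libraries (blue, right). HOXA2 is the one pika gene above 1 FPKM, HOXD8 has no pika row, 1 gene is not drawn, and the highest mouse levels are those of HOXB13, HOXB9, HOXC12 and HOXC13.

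HOXA was the cluster with the most HOX transcripts in pika. Its 11 genes summed to 7.74 ± 0.895 FPKM in pika and 9.81 ± 0.506 in mouse (SD, n = 3 each), on the deposited scale. On the shared-gene scale it summed to 16.6, 14.9 and 18.8 in the pika libraries and 49.6, 52.8 and 53.7 in the mouse libraries, which did not overlap. The genes behind these sums were different ones in the 2 species. Rows at 0 numbered 8, 8 and 6 of 11 in the pika libraries and 1, 1 and 0 of 11 in the mouse libraries. HOXA2, which patterns the hindbrain and the second pharyngeal arch in mouse embryos, was at 7.24, 6.43 and 7.63 FPKM in pika (74, 62 and 81 reads), against 0.196, 0.461 and 0.594 FPKM in mouse (2, 3 and 5 reads). All 3 pika libraries were above all 3 mouse libraries. The log2 fold change was 2.41 (SE 0.24, limma-trend with Benjamini-Hochberg adjusted p = 8.96e-06), and it lay between 2.11 and 2.87 over 14 alternative settings. HOXA2 alone made up 87.2%, 77.7% and 81.0% of the HOX FPKM of the pika libraries. The mouse gene lies on the minus strand of chromosome 6, from 52162417 to 52164831 in GRCm38.

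HOXA3 and HOXA4 were low in both species. HOXA3, needed for the thymus and parathyroid in mouse, was at 0.288, 0.122 and 0.499 FPKM in pika and 0.144, 0.182 and 0.105 in mouse, with overlapping libraries. The counts were 16 reads in pika and 12 in mouse. HOXA4 had no read in pika and 1 read in mouse, in the third library.

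From group 5 to group 13 the HOXA genes were listed at 0 or were above 0 in a single library in pika. HOXA5, HOXA7, HOXA9, HOXA10 and HOXA13 were listed at 0 in all 3 pika libraries, and HOXA6 and HOXA11 were above 0 in the third, on 1 recovered read each. In mouse HOXA5 had 0.925, 0.436 and 0.786 FPKM, HOXA6 0.199, 0.937 and 0.483, HOXA7 0.362, 0.380 and 0.660, and HOXA9 0.529, 0.245 and 0.151, all under the filter. The genes of groups 10 to 13, which pattern the uterus and the distal limb, were higher in mouse. HOXA10 had 3.19, 3.59 and 3.03 FPKM there, and HOXA13, mutated in hand-foot-genital syndrome, had 1.40, 1.33 and 1.96. Both were called lower in pika (adjusted p = 4.99e-09 and 1.35e-07, limma-trend with Benjamini-Hochberg). No fold is given for a gene listed at 0 in all pika libraries, since the fitted difference then depends on the pseudocount, and the model length that would set a floor could not be worked out for such rows. HOXA11 had 0, 0 and 0.120 FPKM in pika on 1 read, against 1.06, 1.79 and 1.38 in mouse on 44 reads, and was also called lower. Its pooled level on the shared-gene scale was 80.1-fold lower in pika, with an exact 95% counting interval from 13.6-fold to 3235-fold. Intervals of this kind cover counting error alone and take the recovered reads as they are, so with more reads than recovered they would be narrower around the same fold.

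The sequence upstream of 3 mouse HOX genes is shown to set the one gene that was higher in pika beside genes that were lower. All are the 250 bases before a transcript start in RefSeq (GRCm38.p6), written 5′ to 3′ on the strand of the gene. Capitals mark the letters TGATNNAT on either strand, a published bipartite site of PBX and HOX proteins. The windows lie at chr6:52164832-52165081 (minus strand) for Hoxa2, chr6:52240855-52241104 (minus strand, outer start) for Hoxa10 and chr11:96281655-96281904 (plus strand, a start inside the gene record) for Hoxb8. They were chosen with the values known.
Hoxa2: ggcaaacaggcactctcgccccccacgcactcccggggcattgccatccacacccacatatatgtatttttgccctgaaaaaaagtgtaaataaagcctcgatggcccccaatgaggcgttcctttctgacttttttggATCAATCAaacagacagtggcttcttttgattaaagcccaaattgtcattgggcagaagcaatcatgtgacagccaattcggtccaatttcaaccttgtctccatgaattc
Hoxa10: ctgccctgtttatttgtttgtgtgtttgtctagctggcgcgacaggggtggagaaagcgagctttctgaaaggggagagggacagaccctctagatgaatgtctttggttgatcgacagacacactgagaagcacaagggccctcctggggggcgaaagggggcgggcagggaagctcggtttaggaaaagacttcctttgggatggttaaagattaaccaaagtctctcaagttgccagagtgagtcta
Hoxb8: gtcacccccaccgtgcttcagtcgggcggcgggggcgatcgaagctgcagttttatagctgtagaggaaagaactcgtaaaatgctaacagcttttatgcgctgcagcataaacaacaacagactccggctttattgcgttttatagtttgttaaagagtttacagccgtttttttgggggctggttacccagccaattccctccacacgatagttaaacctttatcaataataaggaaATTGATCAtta

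Hoxa2 and Hoxb8 each held 1 match, in the reverse orientation, and Hoxa10 held none in this window. The promoter table used here held 22 HOX genes in 24 windows. The motif was in 4 of these 24 (16.7%) and in 2524 of all 32851 windows (7.68%), and the other matching genes were Hoxb1 and Hoxd11. HOX windows held a median of 12.5 CG dinucleotides, from 2 to 35, against a median of 6 over all windows. Their observed CG count was 0.721 of that given by their base composition at the median, against 0.374 over all windows. Hoxa2 had 6 CG in its window, Hoxa10 had 7 and Hoxb8 had 12. A match is a description of letters, and binding was not measured in these data.

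HOXB was the cluster with the highest level in mouse and one of the emptiest in pika. Its 10 genes summed to 0.125 ± 0.217 FPKM in pika on 2 reads and to 92.9 ± 4.04 in mouse on 2951 reads (SD and reads over 3 libraries). Rows at 0 numbered 10, 8 and 10 of 10 in the pika libraries and 1, 1 and 1 of 10 in the mouse libraries. All 9 HOXB genes that were tested were called lower in pika by limma-trend, where 23.5% of all tested genes were. Each of the 9 passed the filter through mouse alone, so their direction was largely set by the filter. HOXB1 was at 0 in all 6 libraries. In mouse the levels were lowest at the 3′ end and highest at the 5′ end.

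From group 2 to group 8, all HOXB genes but HOXB4 were listed at 0 in every pika library and were at a few FPKM in mouse. HOXB2, a hindbrain gene, had 1.54, 1.33 and 1.57 FPKM in mouse, and HOXB3 had 2.21, 2.50 and 1.93. HOXB5 had 1.50, 1.86 and 1.51 FPKM in mouse, HOXB7 had 3.04, 3.54 and 3.005, and HOXB8, whose mRNA is cut under guidance of miR-196 in mouse, had 3.03, 2.38 and 2.48. HOXB6, near the middle of the cluster, had 5.13, 6.39 and 4.51. HOXB4, a regulator of blood stem cells, was at 0, 0.106 and 0 FPKM in pika, on 1 recovered read, and at 1.83, 2.02 and 3.53 in mouse on 89 reads. Its pooled level was 180-fold lower in pika, with an exact 95% counting interval of 31.4-fold to 7171-fold.

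The 5′ genes of HOXB held the highest HOX levels of the mouse libraries. HOXB9, which takes part in patterning the ribs, was at 0, 0.269 and 0 FPKM in pika and at 25.1, 31.1 and 27.4 in mouse. Recovered reads numbered 1 in pika and 1000 in mouse, and the pooled level was 791-fold lower in pika, with an exact 95% counting interval of 142-fold to 31265-fold. HOXB13, which marks the prostate, distal gut and tail end of the body, was listed at 0 in all 3 pika libraries and was at 45.2, 45.4 and 47.6 FPKM in mouse (574, 367 and 498 reads). It was called lower in pika (adjusted p = 1.07e-11, limma-trend with Benjamini-Hochberg). HOXB13 made up 29.5%, 28.1% and 28.8% of the HOX FPKM of the mouse libraries. In GRCm38 it lies on chromosome 11 from 96194316 to 96196610, and Hoxb9 lies there from 96271330 to 96276595.

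HOXC resembled HOXB. Its 9 genes summed to 0.114 ± 0.106 FPKM in pika on 4 reads and to 57.0 ± 3.56 in mouse on 1447 reads (SD and reads over 3 libraries). Rows at 0 numbered 9, 8 and 7 of 9 in the pika libraries and 0, 0 and 0 of 9 in the mouse libraries. All 8 HOXC genes that were tested were called lower in pika by limma-trend, where 23.5% of all tested genes were. Each of the 8 passed the filter through mouse alone, as in HOXB. The ninth, HOXC4, was under the filter with 0 FPKM in every pika library and 1.01, 0.638 and 0.657 in mouse.

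The HOXC genes from group 5 to group 9 were low in mouse as well. HOXC5 and HOXC9 were at 0 in every pika library, and in mouse HOXC5 had 1.29, 2.56 and 2.59 FPKM and HOXC9 had 1.00, 1.24 and 1.30. HOXC6, a gene of the thoracic region and the mammary gland, had 0, 0 and 0.125 FPKM in pika against 1.15, 1.25 and 2.19 in mouse. HOXC8 had 0, 0 and 0.0854 FPKM in pika against 1.23, 1.35 and 0.894 in mouse. With 1 recovered pika read each, the pooled level of HOXC6 was 85.7-fold lower in pika (exact 95% counting interval 14.7-fold to 3450-fold) and that of HOXC8 94.7-fold lower (15.4-fold to 3902-fold).

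The 5′ genes of HOXC were the highest of the cluster in mouse. HOXC10, a gene of the hindlimb and lumbar region, had 0, 0.130 and 0 FPKM in pika on 2 reads and 9.73, 12.3 and 10.7 in mouse on 290 reads, and its pooled level was 641-fold lower in pika, with an exact 95% counting interval of 176-fold to 5320-fold. HOXC11, HOXC12 and HOXC13 were listed at 0 in every pika library. In mouse HOXC11 had 4.38, 6.48 and 4.90 FPKM, HOXC12 had 21.6, 16.9 and 23.5, and HOXC13, needed for hair and nail formation, had 13.8, 12.0 and 14.3, and each gene was called lower in pika. The adjusted p was 5.08e-09 for HOXC11, 2.33e-10 for HOXC12 and 2.06e-10 for HOXC13 (limma-trend with Benjamini-Hochberg).

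HOXD had few reads in both species and gave no test, since none of its genes reached the filter. Its 8 rows summed to 0.686 ± 0.175 FPKM in pika on 21 reads, and its 9 rows to 0.373 ± 0.267 in mouse on 10 reads (SD and reads over 3 libraries). Rows at 0 numbered 4, 5 and 5 of 8 in the pika libraries and 8, 5 and 4 of 9 in the mouse libraries. HOXD4, a gene of the hindbrain and neck, was at 0.187, 0.298 and 0.180 FPKM in pika and 0, 0.185 and 0 in mouse. HOXD9 was at 0.0901, 0.477 and 0.260 FPKM in pika and 0, 0.128 and 0.0987 in mouse. Both were above 0 in all 3 pika libraries, and for both the species overlapped.

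The other HOXD genes had at most 2 recovered reads in a species. HOXD3, HOXD11 and HOXD12 were above 0 in 1 library of each species. HOXD12 reached 0.306 FPKM in the first pika library and 0.0832 in the third mouse library, and HOXD13, mutated in synpolydactyly, reached 0.0960 in the second pika library and 0.0699 and 0.0849 in the first and the third mouse library. HOXD8 had 0, 0.199 and 0.154 FPKM in mouse. For the HOX genes with a recovered model length in pika, 1 recovered read was worth between 0.0554 and 0.269 FPKM. The upper value is that of HOXB9, from a row above 0 in 1 library, where length and reads may be larger than recovered. Values of this size rest on few reads, and at this depth no difference between the species was detectable for HOXD.

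**Figure D2:**
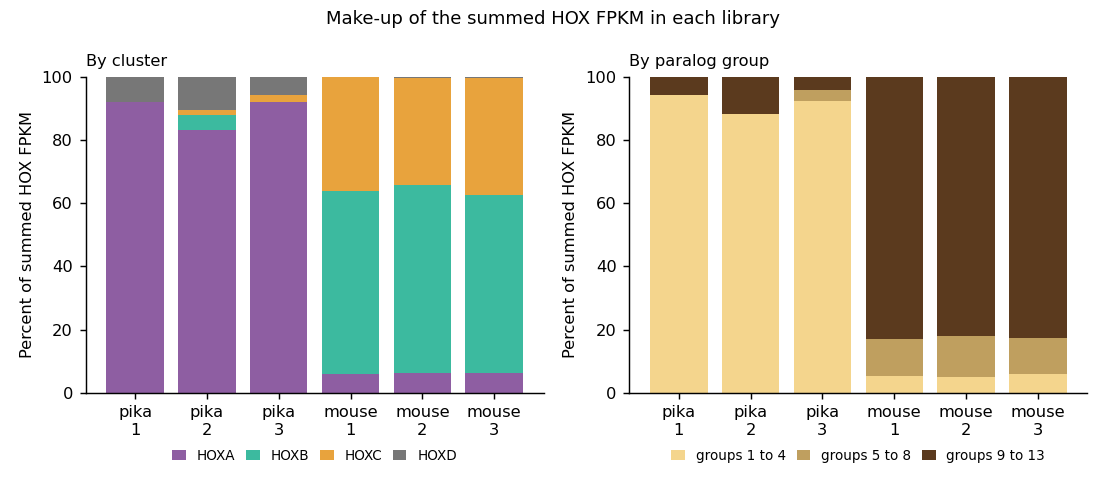
Share of the summed HOX FPKM (y axis, percent) in each pika library (left) and each mouse library (right), split by cluster in the left panel and by paralog groups 1 to 4, 5 to 8 and 9 to 13 in the right panel. HOXA fills 92.0%, 83.4% and 92.2% of the pika bars, and HOXB and HOXC fill nearly all of the mouse bars.

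By paralog group, most HOX FPKM lay in groups 1 to 4 in pika and in groups 9 to 13 in mouse. The pika share was mainly that of 1 gene, HOXA2 (87.2%, 77.7% and 81.0% of the HOX FPKM). HOXB and HOXC had 2 and 4 reads in pika, so the shares do not show a shift along every cluster. Groups 1 to 4 held 91.7 ± 3.09% of the HOX FPKM in pika and 5.33 ± 0.427% in mouse (SD, n = 3 each). Groups 5 to 8 held 1.16 ± 2.01% in pika and 12.2 ± 0.864% in mouse. Groups 9 to 13 held 7.17 ± 4.05% in pika and 82.5 ± 0.531% in mouse. The ranges of the 2 species did not overlap for any of these 3 zones.

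How far the 3′ zone differed in level depended on the scale. Groups 1 to 4 summed to 7.95 ± 0.709 FPKM in pika and 8.54 ± 0.856 in mouse as deposited, with overlapping libraries. On the shared-gene scale they summed to 17.0, 15.7 and 18.8 in the pika libraries and 43.8, 42.1 and 49.95 in the mouse libraries, which did not overlap. HOXA2 made most of the pika sum, HOXB2, HOXB3 and HOXB4 most of the mouse sum. Of the 12 genes in these groups, 3 were called lower in pika, 1 was called higher and 8 were not tested. Groups 5 to 8 summed to 0.109 ± 0.189 FPKM in pika and 19.5 ± 1.73 in mouse, with 7 of 11 genes called lower in pika and 4 not tested. Groups 9 to 13 summed to 0.609 ± 0.318 FPKM in pika and 132.0 ± 4.84 in mouse, with 10 of 16 called lower in pika and 6 not tested. Across all tested genes 23.5% were called lower and 28.7% higher. Each HOX gene called lower passed the filter through mouse alone, so the counts by zone follow the mouse level. Group 2 was the one group with a larger sum in pika, at 7.24, 6.43 and 7.63 FPKM, against 1.74, 1.79 and 2.17 in mouse. Group 13 had the largest sum in mouse, at 60.4, 58.7 and 64.0 FPKM, against 0, 0.0960 and 0 in pika. Groups 5 and 7 were at 0 in every pika library.

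The order of HOX levels in mouse, by deposited FPKM, was firm for the top genes alone. HOXB13 (46.1 ± 1.34 FPKM), HOXB9 (27.9 ± 3.01) and HOXC12 (20.7 ± 3.38) were each separated from the next gene in every library. The place of HOXC12 above HOXC13 depended on the division by model length. By recovered reads HOXC13 was higher in every mouse library (195, 108 and 167, against 128, 64 and 115 for HOXC12). HOXC13 (13.3 ± 1.22) and HOXC10 (10.9 ± 1.29) overlapped each other. HOXC10 stood above HOXB6 (5.34 ± 0.961), which overlapped HOXC11 (5.26 ± 1.09), and HOXC11 stood above HOXA10 (3.27 ± 0.289). From HOXA10 downwards each gene overlapped its neighbour. The first 5 genes together held 75.4%, 72.8% and 74.7% of the mouse HOX FPKM. In pika the order was firm for HOXA2 alone, and HOXA3, HOXD9 and HOXD4, which were also above 0 in all 3 pika libraries, had means from 0.222 to 0.303 FPKM with overlapping libraries.

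**Figure D3:**
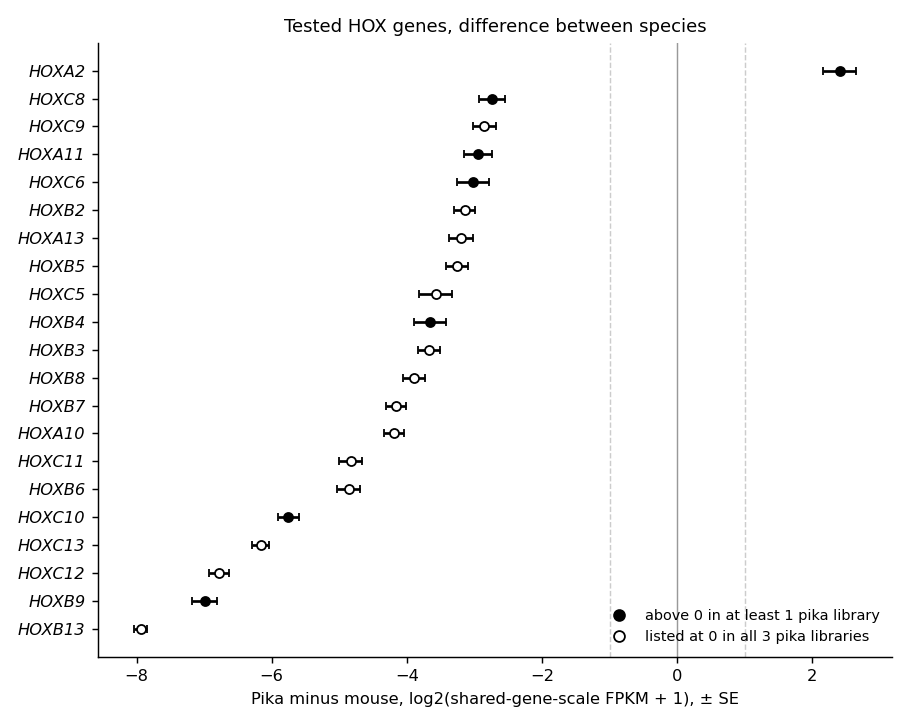
Fitted difference of the 21 tested HOX genes, pika minus mouse, on the log2(shared-gene-scale FPKM + 1) scale (x axis), with bars of 1 SE and dashed lines at the fold minimum. HOXA2 is the one gene to the right of 0, and for open symbols, listed at 0 in all 3 pika libraries, the plotted size depends on the pseudocount and is no bound.

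Several steps bear on these differences without changing a HOX call. The median log2 fold change of the 21 tested HOX genes was -3.67 beside 0.21 for all tested genes, and with a pseudocount of 0.1 it was -6.88 beside 0.22. Of these 21 genes, 20 passed the filter through mouse alone and HOXA2 through pika alone. The sign of the HOX median thus largely follows from the filter, and its size depends on the pseudocount. Without rescaling the medians were -1.71 for HOX genes and 1.29 for all genes, and with median-of-ratios scaling -3.77 and -0.01. The same 21 calls, 20 lower and 1 higher, were made under each of these settings. The joined genes held 87.1% of the pika FPKM and 37.0% to 38.3% of the mouse FPKM, which is why the scale matters between species. Model lengths could be worked out in both species for 16 HOX genes, and the mouse model was longer for 14 of them. Over all 16 the median ratio of mouse to pika length was 2.06, with a range of 0.87 to 5.34. These lengths are the smallest that fit and may be too small, above all in rows above 0 in 1 library. Of simulated mouse rows of that kind, 20.9% had more reads than recovered. The highest ratio was that of HOXB9, whose pika row was above 0 in 1 library. For all joined genes with both lengths the median ratio was 2.2. With reads not divided by length, 20 HOX genes were again called lower and 1 higher. Several HOX models overlap in the mouse annotation, such as Hoxb3 with Hoxb4, Hoxa3 with Hoxa4 and Hoxd3 with Hoxd4, and the split of reads between such genes is uncertain.

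Without the filter on low values, 26 joined HOX genes were called lower and 1 higher. Among the 6 added genes were HOXA5, HOXA6, HOXA7, HOXA9 and HOXC4, and the 6 had adjusted p from 6.01e-06 to 0.00199 (limma-trend with Benjamini-Hochberg). In that fit HOXA3, HOXA4 and the 6 HOXD genes tested were not called, with adjusted p from 0.299 to 0.863 by limma-trend with Benjamini-Hochberg adjustment.

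Other transcripts of the clusters were measured in mouse alone. Between the outer edges of the HOX genes, the mouse table held 20 further rows, 7 in HOXA, 6 in HOXB, 3 in HOXC and 4 in HOXD, and none of them had a pika row of the same symbol. Of these, 10 averaged 1 FPKM or more, and 3 were at 0 in all 3 libraries. The clusters span 105.5 kb on chromosome 6 (HOXA), 173.9 kb on chromosome 11 (HOXB), 115.7 kb on chromosome 15 (HOXC) and 96.9 kb on chromosome 2 (HOXD) in GRCm38.

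The most abundant of these rows lay between Hoxb13 and Hoxb9, the 2 highest HOX genes. Gm53, a long non-coding RNA, was at 14.7, 14.2 and 13.7 FPKM on 336, 207 and 258 reads. Next to it the hairpin of Mir196a-1, 102 bases long, was at 39.2, 40.1 and 37.2 FPKM, which for so short a row was 23, 15 and 18 reads. Gm11539, a pseudogene in the same gap, was at 5.61, 5.39 and 7.57 FPKM. Elsewhere in HOXB, Hoxb5os was at 4.74, 6.67 and 8.48 FPKM, Hoxb3os at 2.81, 2.79 and 2.11, and the hairpin of Mir10a at 1.58, 2.48 and 1.92 on 1 read in each library.

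In HOXC, Hotair, a long non-coding RNA known for repressing HOXD genes in human fibroblasts, was at 1.73, 1.09 and 2.31 FPKM on 10, 4 and 11 reads. Hotairm1 in HOXA was at 3.05, 1.86 and 2.47 FPKM, and Hoxa11os at 1.13, 1.42 and 1.44. In HOXD, Haglr and Hoxd3os1 had 1 read each, both in the third library. The sources used here give no strand setting for the counting, so reads of a HOX gene and of an antisense partner such as Hoxb3os, Hoxb5os or Hoxa11os cannot be told apart. A hairpin row counts reads over the hairpin in a long-RNA library and is no measure of the mature miRNA.

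**Figure D4:**
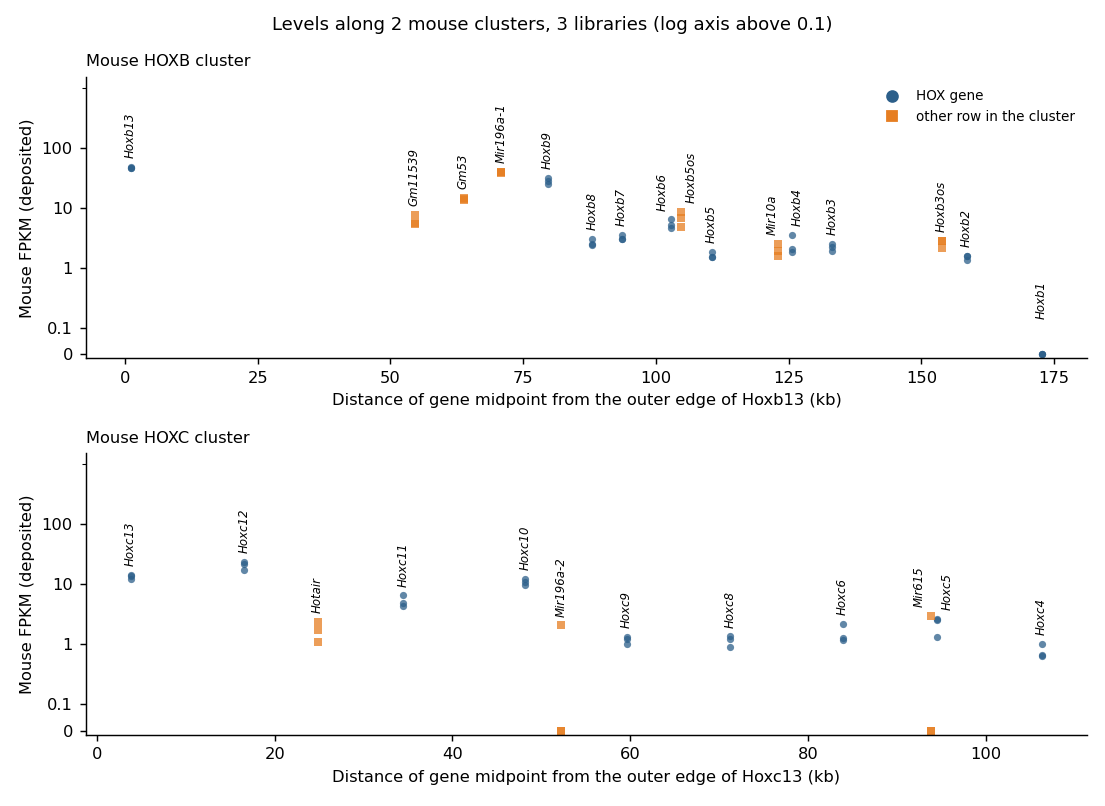
Deposited FPKM (y axis, logarithmic above 0.1 and linear below) in the 3 mouse libraries along HOXB and HOXC, by distance of the gene's midpoint from the outer edge of Hoxb13 or Hoxc13 (x axis, kb). Circles are HOX genes and squares other rows; Gm53 and Mir196a-1 sit between Hoxb13 and Hoxb9, and levels are lower towards Hoxb1 and Hoxc4.

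The clusters encode miRNAs of the miR-196 and miR-10 families, and their mature sequences are shown because members of each family share the seed through which they act on transcripts, HOX transcripts among them. Sequences are from RefSeq (GRCm38.p6), 5′ to 3′, with the seed, bases 2 to 8, in capitals.
miR-196a-5p: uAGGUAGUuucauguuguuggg
miR-196b-5p: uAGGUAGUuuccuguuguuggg
miR-10a-5p: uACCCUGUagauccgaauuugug
miR-10b-5p: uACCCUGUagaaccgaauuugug

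The miR-196a sequence is encoded at chr11:96265187-96265208 (plus strand) by Mir196a-1 and at chr15:102973365-102973386 (plus strand) by Mir196a-2. miR-196b is encoded at chr6:52230129-52230150 (minus strand), miR-10a at chr11:96317186-96317208 (plus strand) and miR-10b at chr2:74726074-74726096 (plus strand). The hairpin rows differed by cluster. Mir196a-1 in HOXB was read in all 3 mouse libraries, Mir196a-2 in HOXC had 1 read in the first library, and Mir196b in HOXA and Mir10b in HOXD were listed at 0 in all 3. Mir615 in HOXC, which belongs to neither family, had 1 read, in the second library.

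HOX proteins bind DNA together with homeodomain partners of the PBX, MEIS and PKNOX families. Each family had members that averaged 1 FPKM or more in both species, though MEIS3 had 2 reads in pika. The 9 joined genes of the cofactor list also count PBXIP1, which binds PBX proteins. All 9 were tested by limma-trend, with 2 called higher in pika, 2 called lower and 5 not called. Their median log2 fold change was 0.07 beside 0.21 for all tested genes. Among all tested genes 28.7% were called higher and 23.5% lower. The split of the cofactors was 5 higher and 2 lower without rescaling, and 3 higher and 6 lower with a median of -1.16 with reads not divided by length. MEIS1, which binds DNA together with PBX and HOX proteins, was at 39.5, 38.5 and 38.5 FPKM in pika and 1.01, 1.22 and 0.941 in mouse. The log2 fold change on the shared-gene scale was 3.69 (SE 0.11). Its close relative MEIS2 was at 18.8, 19.7 and 20.3 FPKM in pika and 1.86, 2.04 and 2.00 FPKM in mouse, and its fold change was 1.92 (log2, SE 0.09). MEIS3 ran the other way, with 0.109, 0.116 and 0 FPKM in pika on 2 reads and 5.53, 5.59 and 6.45 in mouse on 263 reads, and its pooled level was 196-fold lower in pika (exact 95% counting interval 53.8-fold to 1630-fold).

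PBXIP1 was called lower in pika, and PBX2, PBX3, PKNOX1 and PKNOX2 were not called, each with a value that depends on the scale. PBXIP1, which binds PBX proteins and keeps them from DNA, was at 20.0, 20.6 and 21.0 FPKM in pika and 52.8, 51.5 and 55.1 in mouse, which gave a log2 fold change of -2.64 (SE 0.05), or -1.33 without rescaling and -1.39 with reads not divided by length. PBX2 was at 27.6, 27.0 and 30.5 FPKM in pika and 6.15, 6.67 and 6.31 in mouse, and its log2 fold change of 0.84 was under the fold minimum, but it was called higher without rescaling (1.99) and with reads not divided by length (1.28). The log2 fold changes of PBX3 (-0.41, but 0.60 without rescaling), PKNOX1 (0.07, but -0.14 with median-of-ratios scaling) and PKNOX2 (-0.98, but 0.03 without rescaling) changed sign with the scale. With reads not divided by length these genes were called lower, at -1.45 for PBX3, -1.09 for PKNOX1 and -2.36 for PKNOX2.

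**Figure D5:**
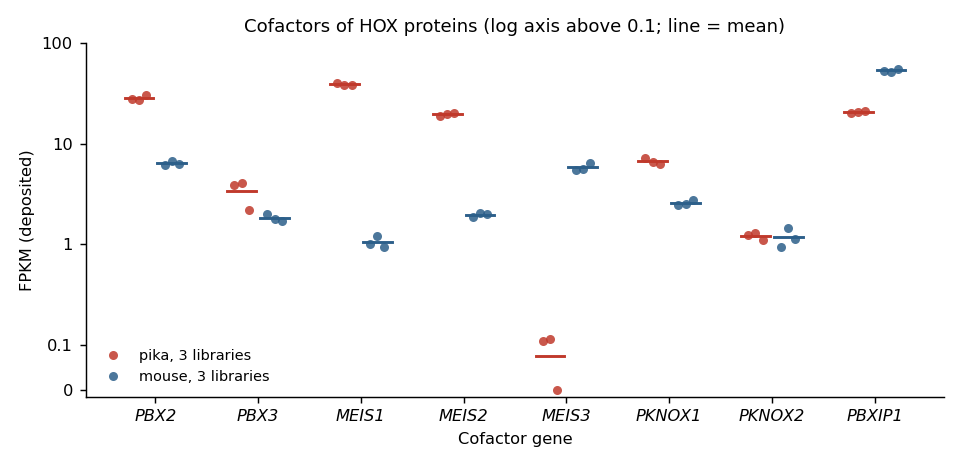
Deposited FPKM (y axis, logarithmic above 0.1 and linear below) of 8 genes of the HOX cofactor list, PBXIP1 among them (x axis). Shown are 1 point per library and a line at the mean of the 3 pika libraries (red, left) and the 3 mouse libraries (blue, right). MEIS1 and MEIS2 stand higher in pika, and MEIS3 and PBXIP1 stand lower; the deposited values are not on the shared-gene scale on which the genes were tested.

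Polycomb proteins keep HOX genes silent by modifying histones, and trithorax proteins keep them active. Of 28 joined Polycomb genes, all tested, 12 were called higher in pika, 0 lower and 16 were not called, with a median log2 fold change of 0.80, where 28.7% of all tested genes were called higher and 23.5% lower. Without rescaling 24 were called higher and 0 lower, with median-of-ratios scaling 11 were called higher and 1 lower, and with reads not divided by length 11 higher and 4 lower. EZH2, the methyltransferase of Polycomb complex PRC2, was at 51.6, 51.8 and 49.8 FPKM in pika and 2.47, 2.17 and 2.68 FPKM in mouse, which was 3.001 as a log2 fold change on the shared-gene scale. Its accessory subunit PHF19 was at 12.4, 13.3 and 12.7 FPKM in pika and 0.620, 0.379 and 0.460 in mouse (log2 fold change 3.01). RBBP4, a histone-binding subunit shared with other complexes, had a log2 fold change of 2.90, and RING1, a ubiquitin ligase of complex PRC1, of 2.17.

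Of 14 trithorax and related genes, all tested, 3 were called higher in pika, 1 lower and 10 were not called, with a median log2 fold change of 0.61, so that the share called higher was below the 28.7% of all tested genes. Without rescaling 13 were called higher and 0 lower, and with reads not divided by length 6 higher and 1 lower. The 3 higher genes, ASH2L (2.39, but 1.11 with reads not divided by length), DPY30 (2.23) and WDR5 (1.41, but 0.70 and not called in that setting), encode shared subunits of the trithorax methyltransferases. KDM6B, which removes the Polycomb mark, was called lower, with a log2 fold change of -1.69 that shrank to -0.40 without rescaling.

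Retinoic acid and CDX factors act upstream of HOX genes in embryos. Of 20 genes on this list 17 were joined and 13 tested, with 2 called higher in pika, 7 lower and 4 not called, and a median log2 fold change of -1.38, beside 28.7% higher and 23.5% lower among all tested genes. Without rescaling 3 were called higher and 3 lower. ALDH1A3, an enzyme that makes retinoic acid, was at 0, 0 and 0.0751 FPKM in pika on 1 read and 14.5, 15.0 and 15.3 in mouse on 972 reads, and its pooled level was 1395-fold lower in pika (exact 95% counting interval 250-fold to 55152-fold). ALDH1A1, another such enzyme, had 1 pika read and 110 mouse reads, a pooled level 164-fold lower in pika (28.8-fold to 6538-fold). CRABP1, which binds retinoic acid in the cytoplasm, was at 1.06, 1.96 and 1.27 FPKM in pika and 20.6, 19.1 and 25.0 FPKM in mouse, and its log2 fold change was -4.84. GMNN, an inhibitor of DNA replication licensing that can also bind HOX proteins, was called higher, with a log2 fold change of 2.48. Whether these genes bear on the HOX levels was not tested.

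Genes that flank the clusters were called in both directions. Of 32 joined flanking genes 26 were tested, with 9 called higher in pika, 3 lower and 14 not called, and a median log2 fold change of 0.65, where 28.7% of all tested genes were called higher and 23.5% lower. Without rescaling 21 were called higher and 1 lower. CBX3, beside HOXA, was at 207.2, 214.0 and 224.2 FPKM in pika and 8.40, 7.29 and 8.48 in mouse (log2 fold change 3.42), and CBX1, beside HOXB, was at 180.2, 185.4 and 181.0 FPKM in pika and 8.13, 8.88 and 9.77 FPKM in mouse (3.03). With reads not divided by length these fold changes were 1.52 for CBX3 and 1.26 for CBX1. Both encode heterochromatin proteins. CHN1, on the HOXD side, had a log2 fold change of 3.67. CALCOCO2, an autophagy receptor gene near HOXB, was at 14.1, 12.8 and 15.4 FPKM in pika and was listed at 0 in all 3 mouse libraries, so no fold is given.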

How the data were processed

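RNA-seq values were used as deposited: per the file headers, the authors gave 1 FPKM value per gene and library. CASAVA 1.9, STAR 2.6.1a, featureCounts and edgeR 3.28.1, and the build GRCm38, are listed in the submitters' processing notes without roles. The sources used here do not name the pika annotation. Reads, totals and model lengths were recovered from the steps between FPKM values (tolerance 0.002 reads), were tested on simulated data, and may be too small by a shared whole factor. No 2 libraries of a species agreed within sampling noise (mean chi-square per gene 1.35 to 1.5 in pika and 1.21 to 1.45 in mouse).

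Pika symbols were joined to symbols of mouse Ensembl identifiers, of which 49326 of 49585 had one. LOC names (3694 pika rows) stayed unjoined, so a HOX gene under such a name is not counted here. Each library was rescaled so that joined genes summed to 1000000. limma-trend (limma 3.58.1, R 4.3.3) was run on log2(value + 1), two-sided, with Benjamini-Hochberg adjustment over 10348 genes. The fit was tested on simulated data. Tables and plots were made in Python 3.11.15 with pandas 2.3.3, numpy 2.4.6 and matplotlib 3.10.9.

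The members and gene lists were chosen with earlier results of these data known. Results for 2 genes are not reported here. Every other HOX gene and cofactor may be named, and from other lists up to 4 called members with the largest change. The other rows within the mouse clusters and some cell type markers were named after their values were seen. Alternatives were other scalings, pseudocounts, filters and tests, reads not divided by length, and leaving out each library.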

Additional observations from a re-analysis of the deposited data

How the results depend on the processing

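The 21 HOX genes tested kept their direction and their call over the 281 alternative fits in which they were tested. The log2 ratio of the summed HOX level was -5.50, and it was -4.21 without rescaling, -5.74 with median-of-ratios scaling, -5.17 with reads not divided by length and between -5.57 and -5.47 without 1 library. HOX genes called lower in pika numbered 20, and 7 with the filter raised to 5 FPKM, where fewer HOX genes were tested. Leaving out 1 library in turn gave 20 to 21 lower and 1 higher.

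Counts over all genes, 2970 higher in pika and 2433 lower, became 6029 and 1106 without rescaling and 5114 and 4053 without a fold minimum, and the lower count became 1584 with the filter at 5 FPKM. The share of calls that were higher was 55% and became 84.5% without rescaling and 46.9% with median-of-ratios scaling. Calls in either direction moved likewise without rescaling, and again without a fold minimum: 7 and 7 of the cofactors (main count 4), 24 and 23 Polycomb genes (12), 13 and 12 trithorax genes (4), and 22 and 25 flanking genes (12). With reads not divided by length, 9 cofactors and 7 trithorax genes were called. Reversed log2 fold changes were those of PBX3 (0.60 without rescaling), PKNOX1 (-0.14 with median-of-ratios scaling and -1.09 with reads not divided by length) and PKNOX2 (0.031 without rescaling). Beyond the construction of each setting, the cause was not tested.

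Replicate numbers are shared between species, but same-numbered libraries did not deviate together (correlations -0.009, 0.048 and 0.009 across genes). With the replicate number as a block, 2972 genes were higher, 2433 lower, and the HOX counts were again 20 lower and 1 higher. Depth limits the HOX genes whose values rest on a few reads, such as those of HOXD.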
